A study of Mus musculus with 4 samples.

Results

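Cholesterol and fatty acid synthesis genes were followed in poly(A) RNA of mouse spermatocyte suspensions, the germ cells that pass through meiosis. A list of 33 genes was chosen by symbol, and 32 of them were measured among 24388 symbols. They comprise 16 enzymes of the sterol pathway, 5 regulators, 3 genes of fatty acid synthesis, 4 of desaturation and 4 of elongation. Hmgcs1, the remaining gene of the list, was not analysed here. The compared groups were 2 libraries of Np95 knock out spermatocytes and 2 libraries of control spermatocytes, all from C57BL/6 mice whose age label reads 21 dpc. Np95, whose gene symbol is Uhrf1, brings the maintenance DNA methyltransferase to newly replicated DNA. Seminiferous tubules were digested and filtered without a described sorting step, so other testis cells can be present. How the allele was deleted, and in which cells, is not given in the sources used here, although the column headings of the knockout libraries read cKO. Nothing says that replicates came from separate animals, so every p-value rests on variation among these 4 libraries, part or all of which could be technical.

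Cells build cholesterol from acetyl-CoA through mevalonate, squalene and lanosterol, and they build saturated fatty acids from the same precursor before desaturases and elongases modify them. Both branches are known targets of the SREBP transcription factors, which the escort protein Scap carries out of the endoplasmic reticulum when sterols are low and which Insig proteins hold back when sterols are high. In the testis, cholesterol is also the precursor of Leydig cell steroids, sterol intermediates named for activating meiosis accumulate in the gonads, and long polyunsaturated fatty acids made with Elovl2 are needed for sperm production in mice.

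Because these genes are known to share control at their promoters, RefSeq promoter windows were inspected as letters for the 26 measured members that the table holds. Of 36 windows of 250 bases before a transcription start, 21 (58.3%) held CCAAT or its reverse complement, the box bound by NF-Y, a known partner of SREBP, against 33.8% of 32851 windows of all genes. In the sterol pathway 13 of 16 windows held it, with at least 1 window for each of the 13 genes covered, whereas 3 of 10 windows of fatty acid genes did. Counted among them are the windows of Nsdhl and Sc5d, whose bases just after the start were not found in a GENCODE transcript of the gene. The E-box CACGTG was in 16.7% of member windows and 6.02% of all windows. The sterol regulatory element searched as TCACNCCAC and the cAMP response element TGACGTCA were in 0 member windows, against 1.05% and 1.55% of all windows. With shares this low, 0 of 36 windows is no sign that members lack these elements, and variants of the strings were not searched. Member windows were rich in CpG, with a median of 16 per window against 6 in all windows, and among all windows with 10 or more CpG 33.1% held CCAAT. All motifs were searched on both strands, and a match is a string of letters, not a shown binding site.

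The windows of 6 members are printed below because these genes stand for the different outcomes among the members: Insig1, Fasn, Cyp51 and Msmo1 were higher in the knockout, Idi1 was not called and Elovl2 was lower. Capitals mark CCAAT on either strand and CACGTG, the build is GRCm38.p6, and the deposited values were made on mm9. Fasn held matches starting 90, 62 and 59 bases before the start, of which the last 2 overlap, Msmo1 held 3 matches, Idi1 held 2, and Cyp51 held 1 at 29 bases. Insig1 held CCAAT on the reverse strand at 216 bases and CACGTG at 101 bases before the start. The Elovl2 window held neither motif and 49 CpG, the highest count among the member windows.
Insig1, chr5:28071162-28071411, plus strand: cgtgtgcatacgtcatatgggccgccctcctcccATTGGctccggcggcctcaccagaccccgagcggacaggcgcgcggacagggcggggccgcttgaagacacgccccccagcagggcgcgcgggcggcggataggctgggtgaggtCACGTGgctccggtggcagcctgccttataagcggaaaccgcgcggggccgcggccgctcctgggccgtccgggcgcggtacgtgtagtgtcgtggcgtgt
Fasn, chr11:120824548-120824797, minus strand: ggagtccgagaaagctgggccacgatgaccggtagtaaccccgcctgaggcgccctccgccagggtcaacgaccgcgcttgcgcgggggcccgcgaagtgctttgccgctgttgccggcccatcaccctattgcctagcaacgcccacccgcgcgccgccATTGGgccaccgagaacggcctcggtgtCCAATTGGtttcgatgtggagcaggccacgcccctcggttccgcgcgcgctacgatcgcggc
Cyp51, chr5:4104698-4104947, minus strand: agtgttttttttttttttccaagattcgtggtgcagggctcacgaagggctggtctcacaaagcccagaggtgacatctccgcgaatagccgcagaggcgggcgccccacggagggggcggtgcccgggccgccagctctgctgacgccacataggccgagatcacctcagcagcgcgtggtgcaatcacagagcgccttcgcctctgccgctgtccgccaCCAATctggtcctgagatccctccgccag
Msmo1, chr8:64733579-64733828, minus strand: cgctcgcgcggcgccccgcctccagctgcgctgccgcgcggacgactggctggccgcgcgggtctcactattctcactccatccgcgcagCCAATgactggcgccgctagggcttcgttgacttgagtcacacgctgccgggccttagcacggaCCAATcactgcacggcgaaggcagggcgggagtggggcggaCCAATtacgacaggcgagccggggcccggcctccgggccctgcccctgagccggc
Idi1, chr13:8885356-8885605, plus strand: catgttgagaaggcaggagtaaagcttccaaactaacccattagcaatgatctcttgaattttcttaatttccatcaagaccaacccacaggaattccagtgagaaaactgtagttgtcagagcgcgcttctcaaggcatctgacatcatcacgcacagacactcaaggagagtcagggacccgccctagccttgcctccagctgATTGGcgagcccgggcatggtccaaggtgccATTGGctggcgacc
Elovl2, chr13:41220404-41220653, minus strand: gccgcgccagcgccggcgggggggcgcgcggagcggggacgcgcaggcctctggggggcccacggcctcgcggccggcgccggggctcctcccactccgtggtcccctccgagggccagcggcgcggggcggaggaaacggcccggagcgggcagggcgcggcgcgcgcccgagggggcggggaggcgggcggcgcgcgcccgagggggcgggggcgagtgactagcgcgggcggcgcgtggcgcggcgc

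The deposited values are RPKM, read numbers scaled by library depth and by gene length, and the length is that of the whole gene with introns. A value therefore serves to compare a gene between libraries, not with another gene. The steps between low values correspond to a depth of about 22184535 and 9609312 reads in knockout replicates 1 and 2, and of about 11614292 and 25625375 reads in control replicates 1 and 2. If 1 step is 1 read, a member had between 12 and 8554 reads in a library, and the smallest numbers were those of Elovl6, Scd1 and Nsdhl. Uhrf1 was lower under the knockout label, at 1.87 and 1.48 RPKM in the knockout libraries, against 3.11 and 3.29 RPKM in the control libraries (limma adjusted p = 0.0031). The spermatocyte marker Sycp3, of the synaptonemal complex, averaged 28.3 ± 2.42 RPKM in the knockout and 27.0 ± 0.178 RPKM in the control (SD, n = 2 each). Lists of meiotic markers did differ between the groups, so Sycp3 does not show an equal share of spermatocytes. Early prophase genes summed to 105 and 99.8 RPKM in the knockout, against 63.6 and 63.8 RPKM in the control. Pachytene genes summed to 904 and 681 RPKM in the knockout, against 2279 and 2255 RPKM in the control.

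Most members were higher in the knockout, with higher ratios among fatty acid genes than among sterol pathway genes. Over all 32 members, without a filter on low values, 27 had both knockout libraries above both control libraries, 4 had both below, and 1 overlapped. Over all genes the groups were apart for 78.2%, with the knockout above for 53.0% and below for 25.2%. The ratio of mean RPKM, knockout over control, was 2 or more for 20 of 32 members, a size reached by 39.6% of all genes. The median ratio was 3.92 for the 11 fatty acid genes, 3.24 for the 5 regulators and 1.59 for the 16 sterol pathway genes. Over all genes that passed the filter described below, a narrower set, the median ratio was 1.14. Ratios of single members ran from 0.423 for Fdft1 to 5.57 for Scd2.

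Genes that reached 1 RPKM in no fewer than 2 libraries were compared by limma on log2(RPKM + 1), two-sided, with Benjamini-Hochberg adjustment over 9099 genes. Of the 32 members, 23 passed this filter, and of these 17 were called higher, 2 lower and 4 not called at an adjusted p of 0.05. In the same test 73.8% of all genes were called, 43.3% higher and 30.5% lower. Of the members that passed, 10 were below 1 RPKM in both control libraries and so passed only through the knockout libraries, where they are high. These were Mvd, Fdps, Lss, Cyp51, Msmo1, Ebp, Srebf1, Srebf2, Scap and Fads2, and their count says nothing by itself. Fitted without the filter, all 32 members were tested, with 19 called higher, 2 lower and 11 not called, against 51.0% called over 21208 genes, 34.8% higher and 16.2% lower. Log2 fold changes below are on the log2(RPKM + 1) scale, where low genes change less than their RPKM does, and folds are ratios of mean RPKM.

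**Figure D1:**
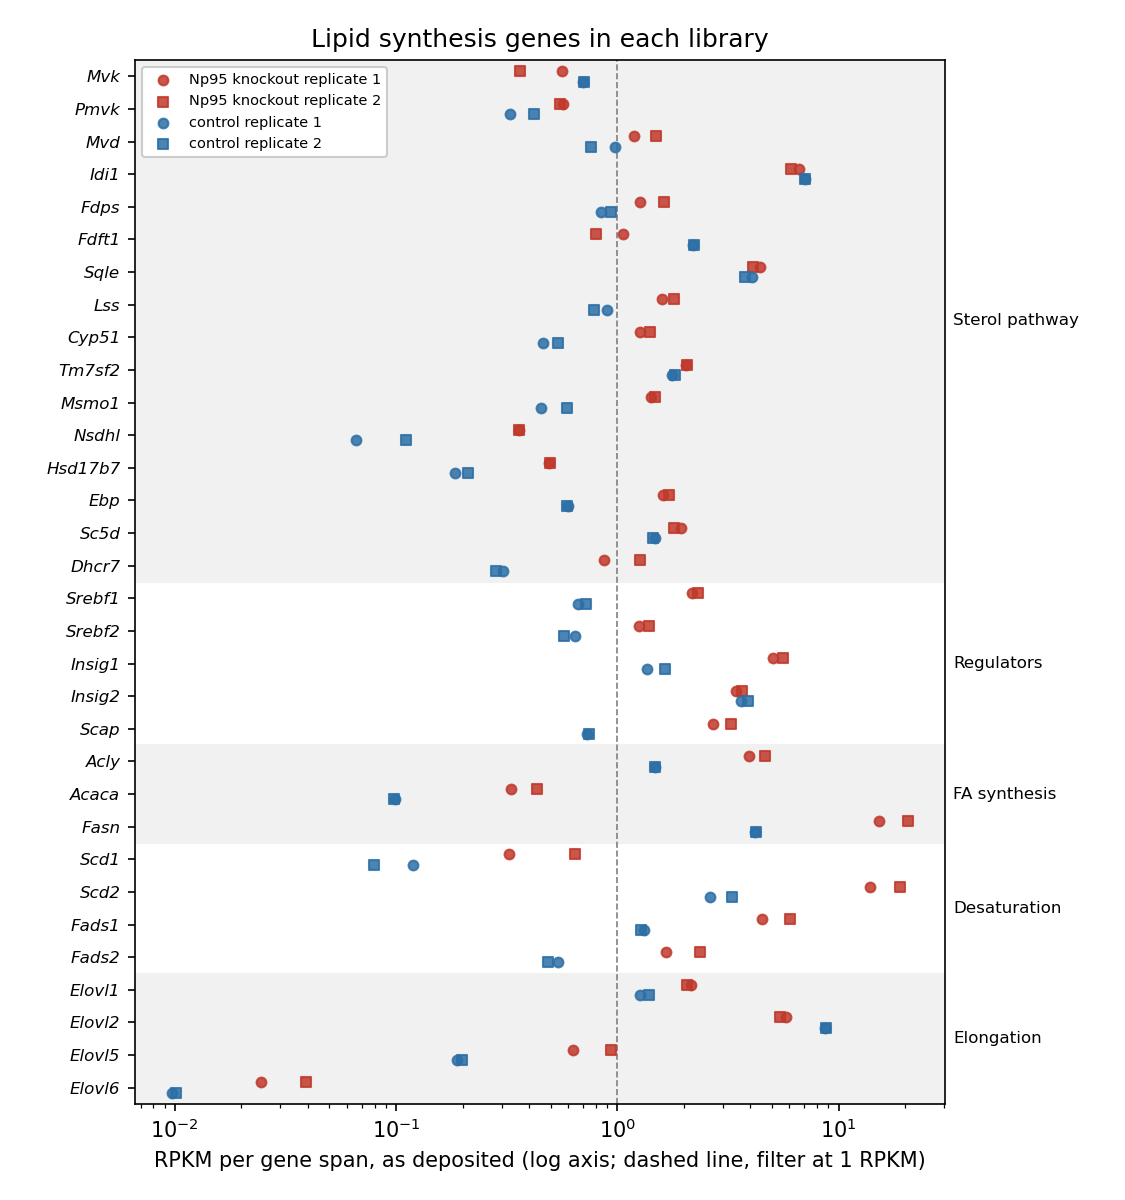
RPKM per gene span of the 32 genes in each library (log axis), with knockout libraries in red above control libraries in blue and a dashed line at the 1 RPKM filter. Scd2 and Fasn lie highest in the knockout libraries, Elovl2 and Idi1 highest in the control libraries, and Insig2 is the gene whose groups overlap.

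All 3 genes of fatty acid synthesis were higher in the knockout. Acly, which makes cytosolic acetyl-CoA from citrate, had 3.96 and 4.66 RPKM in the knockout libraries, against 1.49 and 1.47 RPKM in the control libraries. It was 2.91-fold higher, with an estimated log2 change of 1.10 ± 0.09 (SE, limma adjusted p = 0.0014). Fasn, the fatty acid synthase, had 15.2 and 20.6 RPKM in the knockout, against 4.18 and 4.23 RPKM in the control. Both knockout values of Fasn were above both control values, 4.26-fold on average, with an estimated log2 change of 1.85 ± 0.15 (SE, limma adjusted p = 0.0014). Acaca, the acetyl-CoA carboxylase that makes malonyl-CoA, had 0.331 and 0.434 RPKM in the knockout, against 0.0985 and 0.0982 RPKM in the control, a ratio of 3.89. Acaca lay below the filter because its span of 272017 bases divides its reads, although it had about 2000 and 1135 reads in the knockout libraries and 311 and 685 in the control libraries. Fitted without the filter it was called higher (limma adjusted p = 0.012).

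The desaturases, which place double bonds in fatty acids, had ratios from 3.92 to 5.57. All 3 that passed the filter were called higher, where 43.3% of all genes were. Without the filter 3 of 4 were called higher, where 34.8% of all genes were. Scd2, a stearoyl-CoA desaturase that makes monounsaturated fatty acids, had 13.9 and 19.0 RPKM in the knockout libraries, against 2.62 and 3.30 RPKM in the control libraries. Its estimated log2 change was 2.13 ± 0.17 (SE, limma adjusted p = 0.0014), the highest of the members. Scd1, its neighbour on chromosome 19 and close relative, stayed low throughout, with 0.323 and 0.643 RPKM in the knockout and 0.120 and 0.0793 RPKM in the control. Scd1 had a ratio of 4.85 but was not called (limma adjusted p = 0.055 without the filter), with 18 to 95 reads per library, and with a pseudocount of 0.1 it was called (adjusted p = 0.029). It was also called with a pseudocount of 0.5 (0.046), at an equal RPKM sum (0.044), per exon length without the filter (0.024), and without knockout replicate 1 (0.020) or knockout replicate 2 (0.044). Reads that match both relatives could have been split between them. Fads1 and Fads2, the delta-5 and delta-6 desaturases of polyunsaturated fatty acids, were 4.04-fold and 3.92-fold higher. Fads1 had 4.49 and 6.01 RPKM in the knockout, against 1.32 and 1.28 RPKM in the control (limma adjusted p = 0.0014). Fads2 had 1.66 and 2.36 RPKM in the knockout, against 0.537 and 0.488 RPKM in the control (limma adjusted p = 0.0021), and it passed the filter through the knockout only. Fitted without the filter, Fads2 was called higher as well (limma adjusted p = 0.013).

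The elongases, which lengthen fatty acids, moved in both directions. Elovl2, which extends long polyunsaturated fatty acids, fell to 5.77 and 5.44 RPKM in the knockout libraries, against 8.67 and 8.78 RPKM in the control libraries. It was the fatty acid gene that went lower, 1.56-fold, with an estimated log2 change of -0.56 ± 0.08 (SE, limma adjusted p = 0.0028), and the groups did not overlap. With the RPKM sums of the libraries made equal its call ended (log2 fold change -0.19, adjusted p = 0.078). Elovl5, which acts on shorter polyunsaturated fatty acids, had 0.629 and 0.938 RPKM in the knockout, against 0.190 and 0.198 RPKM in the control, a ratio of 4.05. Elovl5 was below the filter and was called higher without it (limma adjusted p = 0.019). Elovl1, of saturated and monounsaturated very long chains, had 2.16 and 2.06 RPKM in the knockout, against 1.26 and 1.38 RPKM in the control (limma adjusted p = 0.0049). The call of Elovl1 ended without control replicate 1 (adjusted p = 0.055) and with quantile normalization (0.086). Elovl6, which lengthens palmitate, had 0.0246 and 0.0391 RPKM in the knockout and 0.00969 and 0.0101 RPKM in the control, from 12 to 58 reads per library, and was not called (adjusted p = 0.073 without the filter). Without knockout replicate 1 (adjusted p = 0.021) or knockout replicate 2 (0.043), and per exon length without the filter (0.028), it was called higher.

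Of the 5 regulators 4 were called higher and 1 was not called, both with the filter and without it. Over all genes 43.3% were called higher with the filter and 34.8% without it. Scap, the sterol sensor that escorts SREBP, had 2.71 and 3.27 RPKM in the knockout libraries, against 0.731 and 0.745 RPKM in the control libraries. It was 4.05-fold higher, with an estimated log2 change of 1.20 ± 0.09 (SE, limma adjusted p = 0.0014). Srebf1, which codes for the SREBP that mainly drives fatty acid genes, had 2.17 and 2.32 RPKM in the knockout, against 0.665 and 0.719 RPKM in the control, and was 3.24-fold higher (limma adjusted p = 0.0014). Srebf2, whose product mainly drives cholesterol genes, had 1.26 and 1.39 RPKM in the knockout, against 0.644 and 0.571 RPKM in the control, and was 2.18-fold higher (limma adjusted p = 0.0026). Scap, Srebf1 and Srebf2 were below 1 RPKM in the control and passed the filter through the knockout alone. Fitted without the filter they were called higher (limma adjusted p = 0.010 for Scap and Srebf1 and 0.012 for Srebf2). The call of Srebf2 ended with quantile normalization (adjusted p = 0.053).

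The Insig pair, which retains Scap and SREBP in the endoplasmic reticulum, split. Insig1, itself an SREBP target, had 5.05 and 5.63 RPKM in the knockout, against 1.36 and 1.64 RPKM in the control, with an estimated log2 change of 1.34 ± 0.10 (SE, limma adjusted p = 0.0014). Insig2 had 3.42 and 3.65 RPKM in the knockout and 3.63 and 3.89 RPKM in the control, with overlapping groups and an estimated log2 change of -0.07 ± 0.08 (SE, limma adjusted p = 0.47). The sign for Insig2 depended on the scaling: it was called higher with an equal RPKM sum (log2 fold change 0.26, adjusted p = 0.041) and lower with an equal median (-0.27, adjusted p = 0.025). The ratio of Insig1 to Insig2 within a library needs no scaling, and was 1.47 and 1.54 in the knockout libraries, against 0.375 and 0.423 in the control libraries.

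The ratios of 5 pairs of members within each library were compared by a two-sided exact permutation test on log2(RPKM + 1) values, which with 2 against 2 libraries cannot go below p = 0.333. Each pair gave that p, on a difference of log2 ratios, knockout minus control, of 1.41 for Insig1 to Insig2, 0.41 for Srebf1 to Srebf2, 0.45 for Fads1 to Fads2, 1.71 for Scd2 to Scd1 and -1.13 for Elovl2 to Elovl5. Elovl2 to Elovl5 had a plain RPKM ratio of 9.19 and 5.79 in the knockout libraries, against 45.7 and 44.4 in the control libraries. Srebf1 to Srebf2 had 1.73 and 1.67 in the knockout, against 1.03 and 1.26 in the control. The plain ratios of Fads1 to Fads2 overlapped, at 2.71 and 2.55 in the knockout and 2.46 and 2.63 in the control, and so did those of Scd2 to Scd1, at 43.0 and 29.6 in the knockout and 21.9 and 41.6 in the control.

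**Figure D2:**
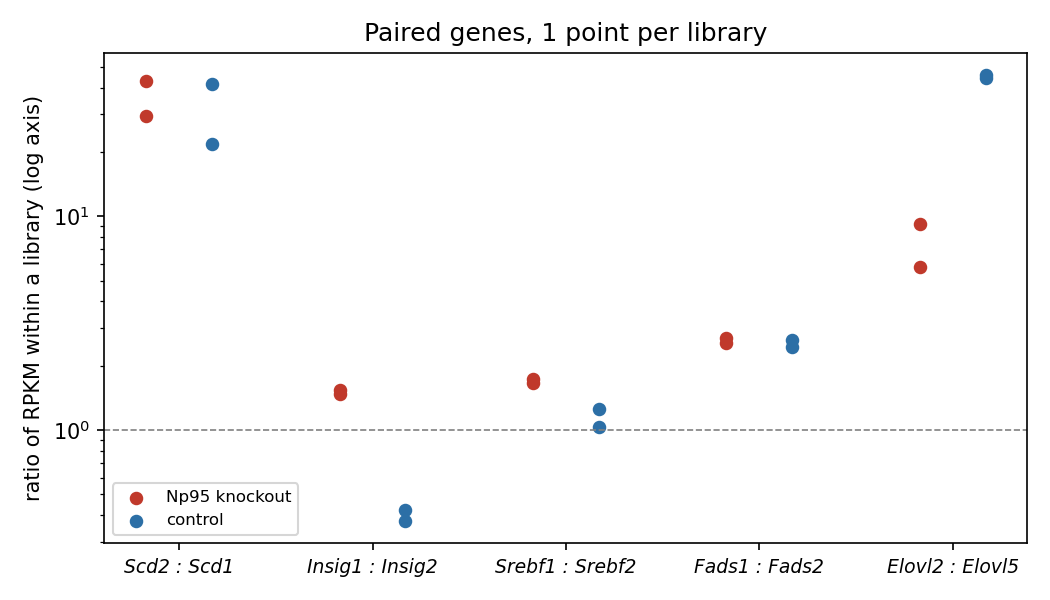
Ratio of RPKM of paired genes within each library (log axis), 1 point per library, knockout in red left of control in blue. The Insig1 to Insig2 and Elovl2 to Elovl5 ratios are apart between groups, while those of Scd2 to Scd1 and of Fads1 to Fads2 overlap.

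In the sterol pathway most steps after lanosterol were higher in the knockout by 2-fold or more, while the steps around squalene differed from each other. Of the 8 enzymes after lanosterol, each had both knockout libraries above both control libraries, and 6 had a ratio of 2 or more. Over all genes 53.0% lay above in this way and 39.6% had such a ratio. Cyp51, the lanosterol demethylase, had 1.26 and 1.40 RPKM in the knockout libraries, against 0.463 and 0.541 RPKM in the control libraries (2.65-fold, limma adjusted p = 0.0018). Like Msmo1, Ebp and Lss below, it passed the filter through the knockout only. Fitted without the filter, these genes were called higher with limma adjusted p from 0.010 to 0.013. Msmo1, which removes the methyl groups at carbon 4, had 1.43 and 1.49 RPKM in the knockout, against 0.453 and 0.595 RPKM in the control (2.78-fold, limma adjusted p = 0.0017). Its partners in that step were below the filter and were called higher without it: Nsdhl was 4.08-fold higher and Hsd17b7 2.49-fold (limma adjusted p = 0.010 each). Nsdhl had 0.359 and 0.361 RPKM in the knockout, against 0.0659 and 0.111 RPKM in the control. Hsd17b7 had 0.490 and 0.497 RPKM in the knockout, against 0.184 and 0.213 RPKM in the control, and its call ended with quantile normalization (adjusted p = 0.05013).

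Ebp, the sterol isomerase, had 1.61 and 1.72 RPKM in the knockout, against 0.600 and 0.594 RPKM in the control (2.79-fold, limma adjusted p = 0.0014). Ebp and Nsdhl are on the X chromosome, where 94.8% of 249 genes with the filter and 60.5% of 859 genes without it were called higher. Dhcr7, the last reductase, had 0.873 and 1.26 RPKM in the knockout, against 0.305 and 0.282 RPKM in the control (3.64-fold, limma adjusted p = 0.017 without the filter). The remaining enzymes of this stretch had lower ratios. Tm7sf2, a sterol reductase, had 2.05 and 2.07 RPKM in the knockout and 1.76 and 1.81 RPKM in the control (1.15-fold), was not called (limma adjusted p = 0.14), and its sign depended on the scaling, with a log2 fold change of 0.41 at an equal RPKM sum (adjusted p = 0.0056) and -0.11 under quantile normalization. Sc5d, the sterol desaturase, had 1.94 and 1.80 RPKM in the knockout and 1.48 and 1.45 RPKM in the control (1.28-fold, limma adjusted p = 0.042). The call of Sc5d ended without the filter (0.058), without the trend (0.05042), per exon length (0.12), at an equal median (0.51) and without control replicate 1 (0.20), control replicate 2 (0.23) or knockout replicate 1 (0.073), and its sign turned with quantile normalization (log2 fold change -0.04).

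Fdft1, the squalene synthase that commits the pathway to sterols, was the sterol pathway gene that was called lower per gene span. It had 1.06 and 0.802 RPKM in the knockout libraries, against 2.19 and 2.21 RPKM in the control libraries, and was 2.36-fold lower, with an estimated log2 change of -0.73 ± 0.09 (SE, limma adjusted p = 0.0019). Sqle, the squalene epoxidase that follows it, had 4.40 and 4.10 RPKM in the knockout and 4.05 and 3.77 RPKM in the control, and was not called (log2 fold change 0.10, SE 0.08, limma adjusted p = 0.33). Its sign depended on the scaling, with a call at an equal RPKM sum (0.43, adjusted p = 0.0065) and -0.11 at an equal median. Lss, which closes the ring to lanosterol, had 1.59 and 1.81 RPKM in the knockout, against 0.897 and 0.782 RPKM in the control (2.02-fold, limma adjusted p = 0.0029). The neighbouring steps thus had ratios of 0.423, 1.09 and 2.02.

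The mevalonate steps had no ratio of 2 or more. Idi1, the isomerase of the isoprenoid units, had 6.62 and 6.07 RPKM in the knockout and 7.08 and 7.02 RPKM in the control, and was not called (log2 fold change -0.13, SE 0.08, limma adjusted p = 0.21). With an equal RPKM sum its sign turned (0.23), and with an equal median it was called lower (-0.36, adjusted p = 0.017). Fdps, the farnesyl diphosphate synthase, had 1.26 and 1.63 RPKM in the knockout, against 0.842 and 0.936 RPKM in the control (1.63-fold, limma adjusted p = 0.021). Mvd, the decarboxylase, had 1.18 and 1.503 RPKM in the knockout, against 0.977 and 0.763 RPKM in the control (1.54-fold, limma adjusted p = 0.039). Their calls ended without control replicate 1 (adjusted p = 0.12 for Fdps and 0.071 for Mvd) and without control replicate 2 (0.076 and 0.23), and that of Mvd also ended without knockout replicate 2 (0.11). Both passed the filter through the knockout only. Without the filter neither was called (0.053 and 0.086), nor under quantile normalization (0.47 and 0.87) or an equal median (0.065 and 0.145).

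The whole Mvd span overlaps the annotated gene Gm20388 on the other strand, and 89.7% of the Fdps span overlaps Gm43738, so their reads cannot be assigned without doubt. Smaller overlaps with other protein-coding genes cover 9.58% of the span of Tm7sf2, 7.03% of Acaca, 2.25% of Fdft1, 1.09% of Elovl1, 0.7% of Cyp51 and 0.46% of Srebf1. Mvk and Pmvk, the kinases of mevalonate and its phosphate, were below the filter. Mvk had 0.565 and 0.364 RPKM in the knockout and 0.701 and 0.711 RPKM in the control (adjusted p = 0.12 without the filter), and was called lower without knockout replicate 1 (adjusted p = 0.033) and under quantile normalization (0.022). Pmvk had 0.571 and 0.553 RPKM in the knockout and 0.326 and 0.420 RPKM in the control (adjusted p = 0.064 without the filter), was called higher at an equal RPKM sum (0.017), and turned its sign under quantile normalization. Without the filter and with 1 control library left out, limma called 0 of 21208 genes, with 8428 genes at an unadjusted p under 0.05 when control replicate 1 was left out and 8656 when control replicate 2 was. The unfiltered calls of Acaca, Elovl5, Nsdhl, Hsd17b7 and Dhcr7 therefore ended there with those of all genes (adjusted p = 0.10 to 0.13).

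Since gene span divides the reads of genes with long introns, values were also rescaled by the length of the exons, a choice made after seeing the data. On that scale 30 of 32 members passed the same filter, with 22 called higher, 3 lower and 5 not called, against 75.6% called over 13954 genes, 50.4% higher and 25.2% lower. The genes gained in this way were Acaca, Elovl5, Dhcr7, Nsdhl and Hsd17b7, called higher, Pmvk (adjusted p = 0.034, higher) and Mvk (adjusted p = 0.045, lower). The log2 fold change of Elovl5 was 1.79 per exon length (SE 0.19) and 0.57 per gene span (SE 0.10, without the filter), and that of Acaca 1.64 (SE 0.17) and 0.33 (SE 0.05, without the filter). Scd1 and Elovl6 stayed below the filter. Reads from introns remain in these values, so they are levels per exon length only as far as reads come from exons.

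**Figure D3:**
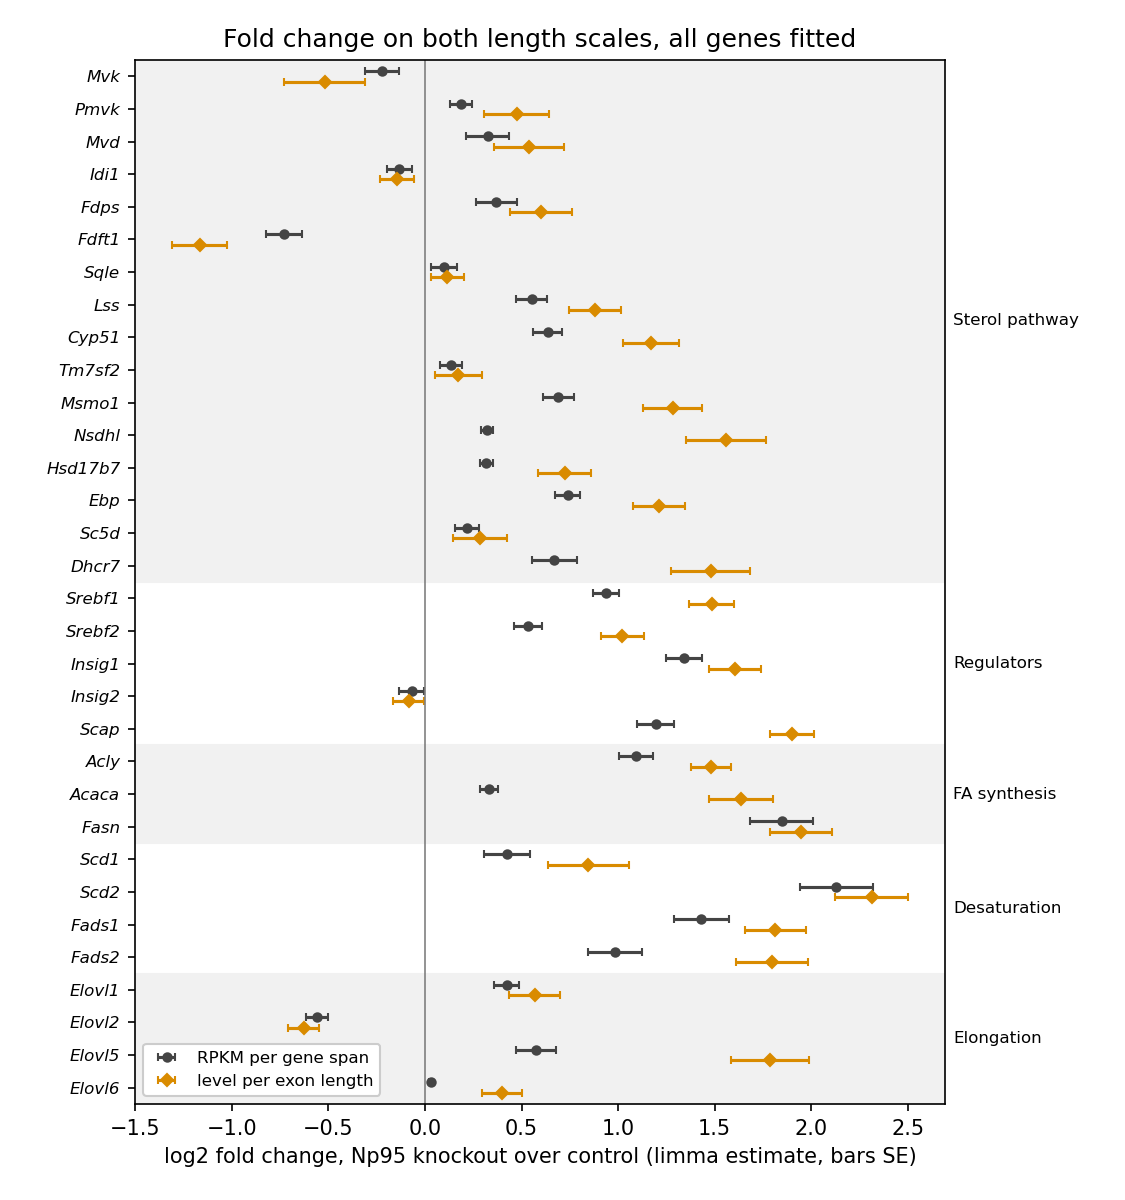
Log2 fold change of the 32 genes, knockout over control, from limma fitted without a filter (bars, SE), on RPKM per gene span (circles) and on the level per exon length (diamonds). Acaca, Elovl5 and Nsdhl move most between the scales, and Mvk, Idi1, Fdft1, Insig2 and Elovl2 lie below 0 on both.

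The level per exon length also puts the members in an order. In the knockout libraries Elovl2 was highest at 53.7 ± 2.30 (mean ± SD, n = 2), followed by Acly at 48.3 ± 5.55, Scd2 at 39.8 ± 8.79, Scap at 36.5 ± 4.86, Fasn at 34.3 ± 7.35 and Insig2 at 33.9 ± 1.56. Acly in knockout replicate 2 lay within the spread of Elovl2, and Scd2, Scap, Fasn and Insig2 did not differ beyond their spread. In the control libraries Elovl2 led at 83.6 ± 0.754, followed by Insig2 at 36.0 ± 1.70, Sqle at 22.8 ± 1.15, Fdft1 at 21.7 ± 0.158, Acly at 16.6 ± 0.0944 and Idi1 at 15.8 ± 0.0926. Sqle and Fdft1 did not differ beyond their spread. Of these 6 genes highest in the control, 1 was called higher on this scale, 2 lower and 3 not called, while of the other 24 tested members 21 were called higher, 1 lower and 2 not called. This split uses the control values that also enter the fold change, so it is a description. Scd2 had rank 3 in the knockout and rank 9 in the control, and Fdft1 had rank 18 in the knockout and rank 4 in the control.

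**Figure D4:**
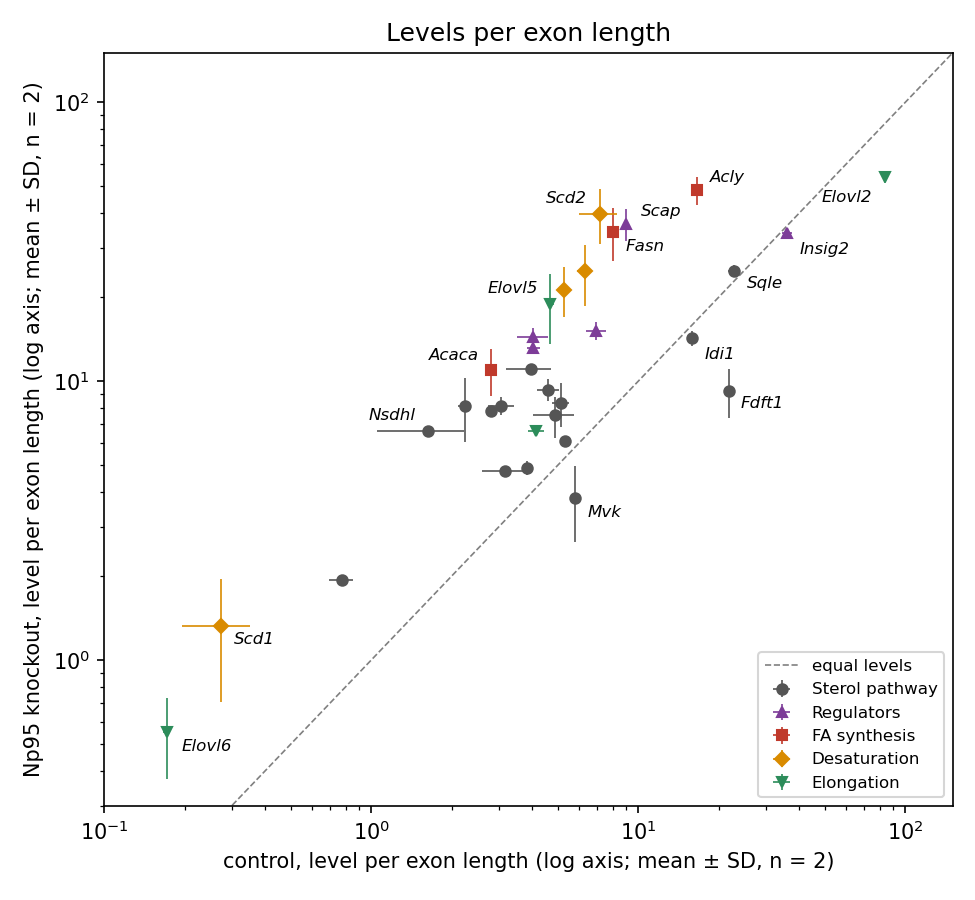
Level per exon length of each gene in the knockout (vertical) against the control (horizontal), both on log axes, with SD bars over 2 libraries and a dashed line of equal levels. Most genes lie above the line, while Elovl2, Insig2, Fdft1, Idi1 and Mvk lie below it.

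Other genes of lipid metabolism were counted from lists in the same limma tests, where 34.8% of all genes were called higher and 16.2% lower without the filter, and 43.3% and 30.5% with it. Among further sterol genes, Acat2, which condenses acetyl-CoA, had 2.89 and 3.02 RPKM in the knockout, against 1.55 and 1.84 RPKM in the control (1.74-fold, limma adjusted p = 0.0035). Ggps1, which makes geranylgeranyl diphosphate, had 2.992 and 3.004 RPKM in the knockout, against 1.79 and 1.84 RPKM in the control (1.65-fold, limma adjusted p = 0.0025).

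In the list of further SREBP control genes, 7 of 14 were called higher and 2 lower without the filter. Of the 7 that passed the filter 3 were called higher, 1 of them through the knockout only, 3 lower and 1 not called. Mbtps1, the protease that cuts SREBP first, was 2.48-fold higher, and Mlxipl, the carbohydrate-responsive factor of lipid genes, 6.37-fold higher with 0.196 and 0.183 RPKM in the control. Rnf139 and Erlin1, which take part in the degradation of sterol-regulated proteins, had ratios of 0.602 and 0.659. For sterol uptake, transport and storage, limma called 15 of 19 genes higher and 0 lower without the filter. All 9 genes that passed the filter were called higher, but 6 of them were below 1 RPKM in both control libraries and passed through the knockout only, so their direction was fixed by the filter. Apoe, the apolipoprotein, had 37.2 and 34.8 RPKM in the knockout, against 11.3 and 10.7 RPKM in the control. Lrp1, a receptor of lipoproteins, was 7.26-fold higher, Scarb1, the receptor of high-density lipoprotein, 3.08-fold and Osbp, an oxysterol-binding protein, 2.12-fold.

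For further fatty acid synthesis genes, 15 of 24 were called higher and 2 lower without the filter. Of the 9 that passed it 5 were called higher, 2 lower and 2 not called, and 2 of the 9 passed through the knockout only. Slc25a1, the mitochondrial citrate carrier upstream of Acly, had 56.1 and 59.0 RPKM in the knockout, against 30.9 and 32.1 RPKM in the control. Tecr, of the elongation cycle, and Mecr, of mitochondrial fatty acid synthesis, were 1.75-fold and 2.06-fold higher, while Mcat, also of mitochondrial synthesis, had a ratio of 0.502. For fatty acid oxidation 9 of 16 were called higher and 3 lower without the filter. Of the 15 that passed it 8 were called higher, 3 lower and 4 not called, and 5 of the 15 passed through the knockout only. Cpt1b, a carnitine palmitoyltransferase, had 8.57 and 5.41 RPKM in the knockout, against 27.4 and 27.8 RPKM in the control, while Hadh, Acaa2 and Eci1, of the oxidation cycle, had ratios of 2.84, 2.54 and 3.14. The balance for lipid activation and glycerolipids depended on the filter: without it 8 of 15 genes were called higher and 4 lower, and of the 8 that passed it 2 were called higher, 4 lower and 2 not called. Of these 8 genes 2 passed through the knockout only and 1 through the control only. Fabp9, the fatty acid-binding protein of the testis, had 69.8 and 41.4 RPKM in the knockout, against 224.7 and 217.8 RPKM in the control, and Acsl6 had a ratio of 0.463, while Fabp5 and Dgat2, which passed through the knockout only, had ratios of 2.64 and 2.39.

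Markers of Sertoli, Leydig, stromal, endothelial and macrophage cells and of cell stress had higher sums in both knockout libraries. Beside the marker counts given here and in the next paragraph, limma with the filter called 43.3% of all genes higher and 30.5% lower. The 17 measured Sertoli cell genes, with Clu and Aard the most abundant, summed to 451 and 562 RPKM in the knockout libraries, against 151 and 177 RPKM in the control libraries, and 15 of 15 tested rose. The 10 Leydig cell genes summed to 66.7 and 57.7 RPKM in the knockout, against 23.2 and 23.1 RPKM in the control, and of the 8 tested 6 were called higher, 1 lower and 1 not called. Among them Insl3 had 45.8 and 31.6 RPKM in the knockout and 11.6 and 13.0 RPKM in the control, and Star, which carries cholesterol into mitochondria for steroid synthesis, had 3.22 and 5.47 RPKM in the knockout and 2.62 and 1.81 RPKM in the control. The peritubular and stromal genes summed to 23.8 and 32.9 RPKM in the knockout, against 8.54 and 9.53 RPKM in the control, with 7 of 7 tested higher, and Col1a1 and Tcf21 were the most abundant. The macrophage genes, led by C1qa and C1qc, summed to 16.6 and 13.0 RPKM in the knockout, against 5.18 and 6.59 RPKM in the control. The endothelial genes, led by Cdh5 and Flt1, summed to under 1 RPKM in each library, and 0 of them passed the filter. Fitted without it, of the 7 genes 1 was called higher, Cdh5, and 1 lower, Flt1. In that fit 34.8% of all genes were called higher and 16.2% lower.

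Dissociation and stress genes, led by Jund and Ier2, summed to 92.6 and 136 RPKM in the knockout, against 24.5 and 30.2 RPKM in the control, and 13 of 13 tested rose. Pachytene genes, with Hspa2 and Cetn1 the most abundant, summed to 904 and 681 RPKM in the knockout, against 2279 and 2255 RPKM in the control, with 12 of 13 tested lower, and the spermatid list, led by Dnajb3 and Acr, had 5 of 6 lower. Early prophase genes, led by Tex15 and Sycp3, had 7 of 11 higher and 1 lower. Of 7 spermatogonial genes tested 6 were higher, among them Uchl1, and 1 was lower. The lower gene was Id4, the most abundant, at 24.6 and 21.6 RPKM in the knockout and 39.0 and 41.7 RPKM in the control. The sums of the spermatogonial list overlapped, at 53.0 and 51.7 RPKM in the knockout and 49.2 and 54.2 RPKM in the control. The median ratio over measured genes was 3.29 in the Sertoli list, 2.98 in the Leydig list, 3.56 in the stromal list, 3.04 in the macrophage list, 2.92 in the endothelial list and 4.75 in the stress list. In the germ cell lists it was 3.39 for spermatogonia, 1.58 for early prophase, 0.345 for pachytene and 0.350 for spermatids. Among the members it was 3.92 in fatty acid genes, 3.24 in regulators and 1.59 in sterol pathway genes. Within the knockout, replicate 2 exceeded replicate 1 for 9 of 11 fatty acid genes, among them 2 of 4 elongases, for 5 of 5 regulators and for 10 of 16 sterol pathway genes. The share of all genes with this order was not computed, so these counts are not a result about the members. The Sertoli, stromal, endothelial and stress sums were higher in knockout replicate 2, and the Leydig and macrophage sums were higher in knockout replicate 1. In the marker lists 3 of 15 Sertoli genes tested, 5 of 13 stress genes, 2 of 5 macrophage genes, 1 of 8 Leydig genes and 1 of 7 stromal genes passed the filter through the knockout only. The same held for 2 of 7 spermatogonial genes and 2 of 11 early prophase genes. The part of these cells and of stress in the lipid results was not tested, and in such suspensions a smaller share of cells of a type and less RNA per cell cannot be told apart.

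**Figure D5:**
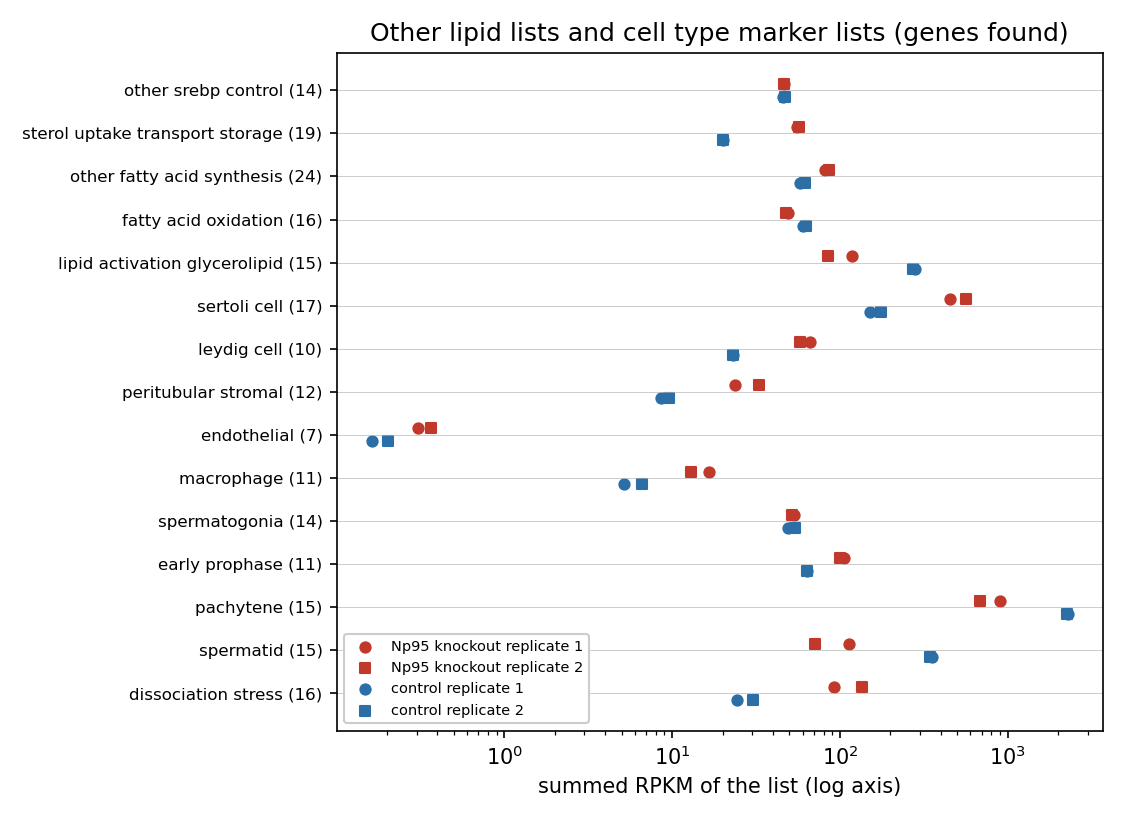
Summed RPKM (log axis) of 5 other lipid lists and each cell type or stress marker list in every library, with the number of genes measured in brackets, knockout in red above control in blue. Sertoli, Leydig, stromal, macrophage and stress sums are higher in both knockout libraries, and pachytene and spermatid sums are lower.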

How the data were processed

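The deposited table holds RPKM values made by the authors, in 1 column per library, with 24444 rows named by gene symbol. Per the submitters' processing notes, Bowtie2 and the build mm9 were used. For the counting program and the annotation, the answer is not given in the sources used here. Per the labels' protocols, poly(A) RNA was selected, libraries were made with a kit that does not mark strand, and 50-bp pairs were read. Of low deposited RPKM values multiplied by gene span, 62.1% to 65.4% in each library were whole multiples of 1 step, within 0.05, against 11.1% to 11.9% by exon length. Whole reads were not recovered for the rest, so no count test was run, and read numbers are approximate.

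Left out were 27 rows with dates as symbols and 29 rows of repeated symbols, where the row with the highest mean was kept. Genes that reached 1 RPKM in no fewer than 2 libraries were compared with limma 3.58.1 (R 4.3.3) on log2(RPKM + 1) with a mean-variance trend, knockout against control, and the fit was tested on simulated data. For members below the filter the fit over all genes with a value above 0 was used. Exon lengths came from GENCODE M21 (32 of 32 members, 96.6% of symbols), gene spans, chromosomes and promoter windows from RefSeq GRCm38.p6, and only lengths and names were joined to the values. The members and lists were chosen with earlier results of these data known, so no test over a list is given. All members were to be accounted for, with values per library for called members at 5 RPKM or more, those with a ratio of 2 or more and those not called, up to 4 called genes with the smallest p per pathway list, the 2 most abundant genes per cell type list, and Uhrf1. Some genes of the list of further sterol genes, and the counts over that list, are not reported here. The alternatives were other pseudocounts, filters and scalings, no trend, a replicate block, leaving out each library, summed repeated rows and exon length.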

Additional observations from a re-analysis of the deposited data

How the results depend on the processing

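Of the 32 members, 13 had the same sign and the same call in each alternative that tested them: Fdft1, Lss, Cyp51, Msmo1, Ebp, Srebf1, Insig1, Scap, Acly, Fasn, Scd2, Fads1 and Fads2. Over all members 400 of 459 repeats did, 35 lost a call, 16 gained one and 8 changed sign. The causes were not tested. The sign changes, as log2 fold changes, were under quantile normalization for Pmvk (-0.041), Sqle (-0.027), Tm7sf2 (-0.11) and Sc5d (-0.036), under an equal median for Sqle (-0.11) and Tm7sf2 (-0.036), and under an equal RPKM sum for Idi1 (0.23) and Insig2 (0.26). Over all genes the log2 fold change had a median of 0.14 as deposited, 0.46 at an equal RPKM sum, -0.05 at an equal median and 0.01 under quantile normalization.

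Over all genes 3943 were called higher and 2776 lower. Without the filter 7370 were higher, per exon length 7038, and at an equal RPKM sum 5657 were higher and 1663 lower. At an equal median 3117 were higher and 3564 lower, and under quantile normalization 3157 and 3042. Leaving out 1 library gave 3034 to 3949 higher and 2085 to 2902 lower. Of the 11 sterol pathway members that passed the filter, 6 of them through the knockout only, 7 were called higher and 1 lower. Over all genes 43.3% were called higher and 30.5% lower. The count without the filter was also 7 higher, with Nsdhl, Hsd17b7 and Dhcr7 in place of Mvd, Fdps and Sc5d. Under an equal median 4 were higher and 2 lower, under quantile normalization 4 were higher, and per exon length 2 were lower. Among regulators 1 was called lower under an equal median, against 0. Of the elongases 1 was called higher and 1 lower, against 2 higher without the filter, 2 higher per exon length, 0 higher under quantile normalization, 0 lower at an equal RPKM sum, and 0 to 1 higher with a library left out.

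With the replicate number as a block 3868 genes were higher and 2721 lower, and 5 sterol pathway members were higher, the calls of Mvd (adjusted p = 0.057) and Sc5d (0.062) having ended. Same-numbered libraries shared only a number, and their deviations from the group means had a correlation of 0.11 over 9099 genes, so this is no sign of pairing. With a pseudocount of 0.1 the paired differences of log2 ratios were 0.93 for Scd2 to Scd1, 1.85 for Insig1 to Insig2, 0.56 for Srebf1 to Srebf2, 0.15 for Fads1 to Fads2 and -2.20 for Elovl2 to Elovl5. Knockout replicate 2 and control replicate 1 are the shallowest, which limits Elovl6, Scd1 and Nsdhl most.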
